A study of Danio rerio with 6 samples.

Results

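The transcripts described here are the 100 with the highest normalised counts in a table of 13927 assembled transcripts from the whole bodies of 6 zebrafish. They were chosen by their mean over the 6 fish, and 5 abundant transcripts (apobb1, ccnb1, gapdhs, hbaa1 and atp1b1a) were left out of the choice by name. Adult males, adult females and juveniles aged 28 dpf (days post fertilisation) were represented by 2 fish each. All 6 animals were untreated, had been euthanised with Tricaine by the breeder and were each sequenced as 1 library, and no strain or age of the adults was given. The labels give no sex for the juveniles, which carry the numbers 2 and 3 in the table, so each could be placed in its group but not matched to its own label.

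Sequencing divides a limited number of reads among all transcripts, so a few very abundant transcripts lower the share left to all others. Total-based scaling, in which each count is divided by the sum over all transcripts, passes such a shift on to every transcript, whereas a median-of-ratios size factor, as DESeq2 uses, follows the typical transcript and is less affected by a few. RNA from a whole fish mixes muscle, liver, blood, skin and gonad. The ovary is a large organ of the adult female, and its oocytes store maternal mRNA. In such a mixture, more cells of a type and more RNA per cell cannot be told apart.

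The values are read counts that the authors divided by 1 size factor per fish, called normalised counts here. No transcript lengths come with them, so a high value can reflect a long transcript as well as many molecules. The members are high by reads, and whether they are so by molecules is unknown. The table is itself a selection. All 13927 transcripts passed 1 deposited comparison at a threshold of 0.05. The comparison is not named, but it follows females against juveniles, and the table is taken below as chosen on it. Differences between females and juveniles are therefore described without a test. The table total of a fish is the sum of its normalised counts over the table. It covers part of the library and is not its depth. The reads recovered in the table ranged from 13980849 to 18635087 per fish. The whole-body label could not be checked against tissue markers, because no gene names are given in the table. Among the members, 3 could be named from their values, namely fkbp5, a co-chaperone of steroid receptors, pdia, of the protein disulfide isomerases that fold secreted proteins, and ctsla, a lysosomal cathepsin L protease.

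The 100 members came from 100 different loci of the assembly. At the lower edge, MSTRG.14439.1 and MSTRG.2305.1 were the last members, with means of 15921 and 15888 normalised counts over the 6 fish. MSTRG.14320.1 and MSTRG.20864.1 fell just outside with 15845 and 15771, so the limit does not fall at a gap in the values. The number 100 is therefore a convention. Only 2 further transcripts of the same loci were in the table, and MSTRG.15263.1, a partner of the member MSTRG.15263.2, had the higher mean of them, at 11341. A selection mark without a stated meaning is set on 47 transcripts of the table. Of these, 24 were members (51.1% of the marked transcripts and 24% of the members), and all 5 transcripts that were left out were marked too.

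The members held a much larger share of the table total in the juveniles than in the adults. Their share was 25.9% in male 1 and 29.3% in male 2, 21.95% in female 1 and 21.2% in female 2, and 47.8% in juvenile 2 and 44.9% in juvenile 3. The group means were 27.6% ± 2.38 in males, 21.6% ± 0.532 in females and 46.3% ± 2.04 in juveniles (SD, n = 2). The 3 groups did not overlap. The members were chosen by these values, so the shares are a description, and an exact two-sided permutation test of 2 fish against 2 cannot give a p below 0.333. Counting error is small beside these differences, since the widest 95% Wilson interval of a member share reached 0.0236 percentage points to either side.

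The excess in the juveniles sat in the first few members. MSTRG.21586.1, the highest, held 12.2% and 11.2% of the table total in the juveniles, 1.16% and 1.99% in males and 0.888% and 0.635% in females. The first 10 members together held 34.2% and 31.6% in the juveniles, 9.02% and 13.5% in males and 4.79% and 4.39% in females. By share, the other 90 ran the other way. They held 13.6% and 13.3% in juveniles, 16.9% and 15.8% in males and 17.2% and 16.8% in females. The share was thus highest in the juveniles for the first 10 members and lowest in them for the rest. This order holds for shares only. The summed normalised counts of the 90, in units of 1000, were 2481 and 2288 in juveniles and 2104 and 2002 in males. In females they were 3673 and 3778. By normalised counts, the juveniles thus stood above the males and below the females. The 5 transcripts left out by name held 1.83% and 1.21% in males, 0.719% and 0.755% in females and 1.17% and 1.35% in juveniles.

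**Figure D1:**
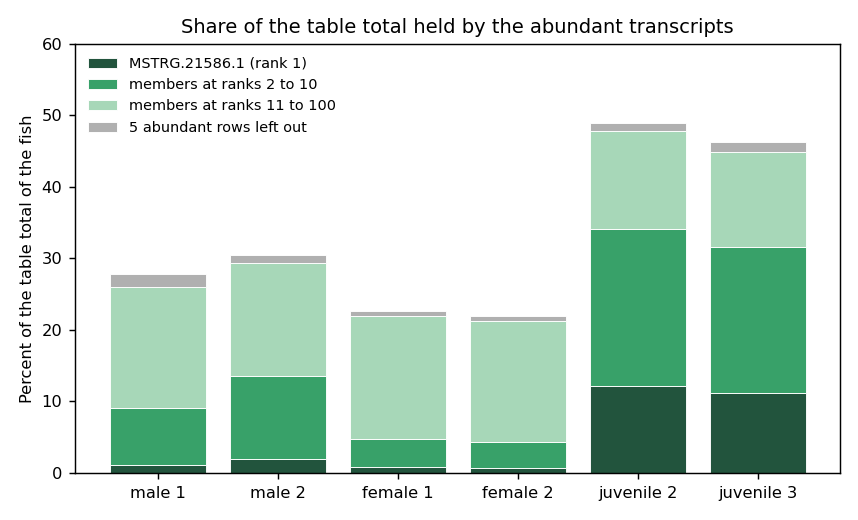
Stacked bars give the percent of each fish's table total (y axis) held by MSTRG.21586.1, by the members at ranks 2 to 10, by those at ranks 11 to 100 and by the 5 abundant transcripts that were left out, with 1 bar per fish. The juvenile bars are the tallest because of the 10 highest members, which hold 34.2% and 31.6% there, while the segment of the other 90 members lies between 13.3% and 17.2% in all 6 fish.

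The same concentration appeared when each fish was ranked by itself. In the juveniles, 5 transcripts were enough to hold 25% of the table total in either fish, against 55 and 39 in the males and over 100 in either female. To reach 50%, 75 and 100 transcripts were needed in the juveniles, 413 and 388 in males and 589 and 596 in females. The female table was therefore the most evenly spread and the juvenile table the least. The top transcript also differed. It was MSTRG.19567.1 in both males, MSTRG.14894.1 in female 1, MSTRG.20608.1 in female 2 and MSTRG.21586.1 in both juveniles.

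A mean over 6 unlike fish does not give a list that is abundant everywhere. Of the 100 members, 29 were among the own 100 highest transcripts of all 6 fish. Another 21 were there in both females and in no other fish, 7 in both juveniles only and 5 in both males only. In single fish, members filled 61 and 66 of the own 100 highest places in males, 72 and 67 in females and 56 and 54 in juveniles. At the other end, members counted as few as 5 reads in 1 fish (MSTRG.14894.1 in juvenile 3). The median member stood at 17461 and 17649 normalised counts in males, 31974 and 34762 in females and 16577 and 16316 in juveniles. The median member was thus highest in females in normalised counts, and the females also had the highest table totals, given below.

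By group means, 51 members were highest in females, 33 in juveniles and 16 in males. The table is taken as chosen on females against juveniles. A transcript high in males but alike in those groups could then not enter it, so these counts are not on equal terms. The commonest full order was females above males above juveniles, in 33 members, followed by juveniles above males above females, in 29. Of the first 10 members, 9 were highest in juveniles, the exception being MSTRG.20608.1. Of the other 90, 50 were highest in females, 24 in juveniles and 16 in males. The 33 that peaked in juveniles held 42.4% and 39.6% of the juvenile table totals. The 51 that peaked in females held 14.3% and 14.6% of the female totals, and the 16 that peaked in males 6.55% and 5.90% of the male totals.

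The highest member, MSTRG.21586.1, was counted at 144483 in male 1 and 252348 in male 2, 190058 in female 1 and 142667 in female 2, and 2227693 in juvenile 2 and 1924506 in juvenile 3. The adult values overlapped between the sexes, and both juveniles stood above all 4 adults. The juvenile mean was 10.5 times the male mean, with a log2 fold change of 3.44 ± 0.41 (SE, adjusted p = 0.0030, limma over all transcripts tested). It was not called between males and females (log2 fold change 0.21 ± 0.41, adjusted p = 0.658).

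MSTRG.19567.1, at rank 2, stood at 374259 and 667206 in males, 230293 and 215504 in females and 555952 and 510368 in juveniles. Both females were low, and the juvenile values lay inside the male range. It was higher in males than in females, with a log2 fold change of 1.17 ± 0.39 (adjusted p = 0.0421), and the call is lost when male 2, either female or either juvenile is left out (adjusted p 0.0547 to 0.149). MSTRG.20771.1, at rank 6, had the same order, with 177243 and 241949 in males, 112684 and 119228 in females and 262740 and 225512 in juveniles. Its log2 fold change of males over females was 0.84 ± 0.28 (adjusted p = 0.0427), and it is lost with the same fish left out (adjusted p 0.0522 to 0.133).

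MSTRG.10154.1 and MSTRG.163.1, at ranks 3 and 4, were juvenile-high transcripts with a substantial adult level. MSTRG.10154.1 stood at 116007 and 148499 in males, 100560 and 82877 in females and 933413 and 816241 in juveniles. MSTRG.163.1 stood at 78913 and 151184 in males, 68230 and 55912 in females and 582814 and 577934 in juveniles. The adult sexes did not overlap in either, the males being higher, but neither was called between them (adjusted p = 0.162 and 0.0915). Against males, the juvenile mean was 6.61 times as high for MSTRG.10154.1 (adjusted p = 0.0022) and 5.04 times for MSTRG.163.1 (adjusted p = 0.0058).

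MSTRG.4638.1 and MSTRG.17344.1, at ranks 5 and 9, were near the juvenile-only end of the members. MSTRG.4638.1 stood at 8151 and 11899 in males, 28235 and 14533 in females and 707129 and 588874 in juveniles. MSTRG.17344.1 stood at 5950 and 8649 in males, 7455 and 4073 in females and 247073 and 364371 in juveniles. Against males, the juvenile means were 64.6 times and 41.9 times as high, which is given without a test because the juveniles alone placed both in the list. Between the adults, MSTRG.4638.1 was lower in males at an adjusted p of 0.0470, which did not hold without any 1 fish other than female 2, and MSTRG.17344.1 was not called (adjusted p = 0.377).

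The remaining members of the first 10 were those at ranks 7, 8 and 10. MSTRG.20608.1, at rank 7, stood at 144260 and 94835 in males, 206596 and 276315 in females and 128156 and 114001 in juveniles. It was the only one of the 10 that was highest in females, and the juveniles lay within the male range. Its log2 fold change of males over females was -1.03 ± 0.32 (adjusted p = 0.0310), which is not called without male 2 (adjusted p = 0.0806) or female 2 (adjusted p = 0.143). MSTRG.24668.1, at rank 8, stood at 35190 and 16823 in males, 33382 and 33982 in females and 393273 and 196717 in juveniles, and the juvenile mean was 11.3 times the male mean (adjusted p = 0.0036). The females agreed closely here, while the fish of either other group were far apart. MSTRG.28423.1, at rank 10, stood at 37761 and 124708 in males, 48678 and 41441 in females and 197485 and 133008 in juveniles. The 2 males were far apart, and neither comparison was called (adjusted p = 0.356 against females and 0.128 against juveniles). With 1 male left out, the other is assumed to vary like the fish of the other groups. Without male 1 the log2 fold change of males over females became 1.47 (adjusted p = 0.0140), and without male 2 that of juveniles over males became 2.10 (adjusted p = 0.0133).

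**Figure D2:**
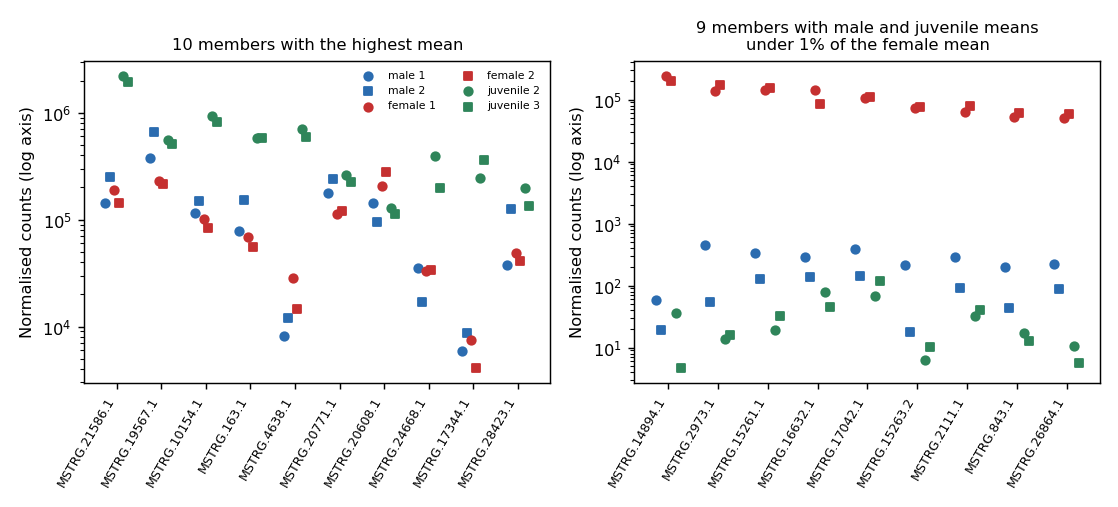
Normalised counts on a log axis for each of the 6 fish (points; blue males, red females, green juveniles). The left panel shows the 10 members with the highest mean and the right panel the 9 members with male and juvenile means under 1% of the female mean. On the left 7 of the 10 members have both juveniles above all adults, and on the right the females stand between 49920 and 244904 while the males reach at most 454.

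Between the sexes, more members were higher in females than in males with the deposited size factors, and this direction turned with other scalings (43 higher in males and 31 lower with the table total, 38 and 36 with the median of ratios and 46 and 26 with the upper quartile, both estimated on the table). With the deposited factors, 21 members were higher in males and 49 lower, and 30 were not called (limma on log2 of normalised count plus 1, adjusted p under 0.05 over the 13748 transcripts tested, 2 fish per group). Over all transcripts tested, 20.1% were called higher in males and 40.5% lower, so the members' split resembles the background. With the median of ratios, 4911 of all 13722 transcripts tested were called higher in males and 4272 lower. With the upper quartile these were 6175 and 3201 of 13717. All these alternative scalings rest on a table that is itself a selection. Without female 2, 5 members were higher in males and 42 lower. The 49 include members that are in the list through the females alone or largely through them. The 9 described below are there through the females alone. For pdia, ctsla, MSTRG.14439.1 and MSTRG.2305.1 the females gave the largest part of the mean, and the others were not counted. The 21 include fkbp5, to whose mean the males gave the largest part. All 100 members passed the filter on low values. The 21 members higher in males had ratios of the male to the female mean from 1.52 to 3.43, with a median of 2.00. The 49 members higher in females had ratios of the female to the male mean from 1.55 to 5692, with a median of 2.86. The largest sex differences were therefore on the female side, where the 9 members described below had the highest ratios. With the table taken as chosen on females against juveniles, a transcript high in males but alike in those groups could not enter it. Nothing is therefore read from this imbalance.

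For the 3 members with a gene name, the sex differences are given without a test. The females gave the largest part of the mean that placed pdia and ctsla in the list, and the males that of fkbp5. The pdia transcript (rank 66) stood at 13051 and 10579 in males, 40197 and 53011 in females and 2561 and 2103 in juveniles. Its female mean was 3.94 times the male mean. The ctsla transcript (rank 71) stood at 6157 and 11559 in males, 37064 and 42760 in females and 10221 and 9344 in juveniles. Its female mean was 4.51 times the male mean. Both genes were therefore female-high among the adults, but the juveniles lay below all males for pdia and within the male range for ctsla. The fkbp5 transcript (rank 89) was the male-high member of the 3, with a male mean 2.81 times the female mean.

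Some members were close to absent outside the females. In 9 members (MSTRG.14894.1, MSTRG.2973.1, MSTRG.15261.1, MSTRG.16632.1, MSTRG.17042.1, MSTRG.15263.2, MSTRG.2111.1, MSTRG.843.1 and MSTRG.26864.1) the male and juvenile means were both under 1% of the female mean. These 9 were picked out after their values were seen. Together they held 4.75% and 4.42% of the female table totals, 0.0197% and 0.00572% of the male and 0.00154% and 0.00165% of the juvenile totals. A place among the most abundant transcripts of the table thus rested on the females alone for these members.

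MSTRG.14894.1, at rank 15, was the extreme case. It stood at 58.7 and 19.2 in males, 244904 and 198379 in females and 36.0 and 4.63 in juveniles. The female mean was 5692 times the male mean, and male and juvenile values overlapped. MSTRG.2973.1 stood at 454 and 55.1 in males, 138815 and 169055 in females and 13.8 and 15.7 in juveniles. MSTRG.15261.1 stood at 330 and 127 in males, 145517 and 155432 in females and 19.0 and 32.4 in juveniles. MSTRG.15263.2 stood at 216 and 17.6 in males, 72857 and 76443 in females and 6.35 and 10.2 in juveniles. In these 3 both males stood above both juveniles, at a small fraction of the female level. The female means were 604, 658 and 639 times the male means and are given without a test, since the females alone placed these members in the list.

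The low counts of these 9 members in the males were not even. Male 1 was above male 2 in 9 of 9, by ratios from 2.11 to 12.3 with a median of 3.06. Male 1 was also above male 2 in 89 (88.1%) of the other transcripts of the table with the same pattern and a female mean of at least 1000, so the direction was not peculiar to the members. The reads behind these values were 66 to 511 in male 1, 22 to 180 in male 2, 6 to 75 in juvenile 2 and 5 to 126 in juvenile 3, all above a floor of 3 reads. The juvenile mean was below the male mean in all 9, and 6 of these differences were called, against 16.2% of all transcripts tested called lower in juveniles. The 9 were picked after their values were seen and the 2 males differ in them, so nothing is read from this count.

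MSTRG.16632.1 and MSTRG.26864.1 had smaller ratios of females to males, 528 and 343, the latter being the smallest of the 9. MSTRG.16632.1 stood at 294 and 139 in males, 144831 and 83504 in females and 79.4 and 45.3 in juveniles. MSTRG.26864.1 stood at 225 and 88.7 in males, 49920 and 57639 in females and 10.6 and 5.55 in juveniles. In both, the males stood above both juveniles, with log2 fold changes of juveniles over males of -1.73 ± 0.46 and -4.03 ± 0.48. These are given without a test, since the 9 were picked after their values were seen. For MSTRG.26864.1 the juvenile values rested on 10 and 6 reads.

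At the male end the differences were small, in a table chosen on females against juveniles. MSTRG.21309.1, at rank 47, stood at 32924 and 15050 in males, 7832 and 6164 in females and 49272 and 43122 in juveniles. It had the largest ratio among the members called higher in males, 3.43 (log2 fold change 1.68 ± 0.37, adjusted p = 0.0094), and is lost without female 2 (adjusted p = 0.0522). MSTRG.9606.1 stood at 42678 and 97856 in males, 26482 and 20922 in females and 72593 and 65083 in juveniles (log2 fold change of males over females 1.46 ± 0.39, adjusted p = 0.0202, or 0.0949 without female 2). In both, the juveniles were above both females. MSTRG.1739.1 had the largest ratio of all members, 4.22, but its males were at 13978 and 2598 against females at 1664 and 2266, and it was not called (adjusted p = 0.0908). Without male 2 it was called (adjusted p = 0.0018), on male 1 alone and with the spread taken from the other groups. MSTRG.1392.1 stood at 15754 and 6214 in males, 4463 and 3222 in females and 47147 and 37510 in juveniles, and was called at 0.0333, a call that is lost without male 1, either female or either juvenile (adjusted p 0.0541 to 0.141).

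Between juveniles and males, 24 members were higher in juveniles and 32 lower, with 2 fish per group in the same limma fit. Over all transcripts tested 18.6% were higher and 16.2% lower. The mean that chose the members includes the juvenile and male values, and some members are in the list through 1 group alone. Nothing is therefore read from the fact that both counts of members lay above the background. Without juvenile 3 they were 16 and 20, and the higher calls of the whole table went from 2561 to 591. The 24 higher members had ratios from 1.49 to 71.3, with a median of 5.94, and the 32 lower members were below the males by ratios from 1.46 to 32.4, with a median of 4.07. Both medians were above those of the ratios between the sexes, which is likewise a description only.

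The 32 members lower in juveniles than in males were also lower in juveniles than in females, by group means. Of the 24 higher ones, 22 were also above the females. The exceptions, named here after their values were seen, were MSTRG.25326.1 and MSTRG.30788.1, whose juvenile means of 42396 and 21783 lay between the male means (18150 and 14311) and the female means (85722 and 29071). Across all members, both juveniles were above both females in 35 and below both in 65, and none overlapped. The table was selected on that comparison, in which 43.2% of its transcripts have a juvenile mean above the female mean, and nothing is read from the counts.

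MSTRG.14530.1, at rank 87, had the largest ratio of juveniles to males. It stood at 794 and 611 in males, 585 and 379 in females and 51452 and 48751 in juveniles. The juvenile mean was 71.3 times the male mean. MSTRG.31341.1 stood at 2273 and 2118 in males, 1152 and 2483 in females and 81726 and 124789 in juveniles. MSTRG.21959.1 stood at 2664 and 1216 in males, 3649 and 4903 in females and 102502 and 37347 in juveniles. The juvenile means of the latter were 47.02 times and 36.0 times the male means, and the 2 juveniles were close for MSTRG.14530.1 and far apart for MSTRG.21959.1. These 3 are in the list through the juveniles alone and are given without a test.

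In all, 7 members had a juvenile mean over 10 times both adult means, namely MSTRG.21586.1, MSTRG.4638.1, MSTRG.17344.1, MSTRG.31341.1, MSTRG.21959.1, MSTRG.14530.1 and MSTRG.793.1. They were picked out after their values were seen. They held 19.0% and 18.2% of the juvenile table totals, 1.34% and 2.20% of the male and 1.08% and 0.755% of the female totals.

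Of the 5 members with the lowest ratios of juveniles to males, MSTRG.26864.1 and MSTRG.2973.1 were female-only members, with male means 19.4 and 17.3 times the juvenile means, and the other 3 were high in adults of both sexes. MSTRG.18112.1, at rank 34, stood at 69581 and 51736 in males, 32612 and 38758 in females and 2621 and 1568 in juveniles. MSTRG.27046.1, at rank 65, stood at 36490 and 37081 in males, 24167 and 22055 in females and 1682 and 956 in juveniles. The male means were 29.0 times and 27.9 times the juvenile means, which is given without a test because the adults alone placed both in the list. Neither was called between the sexes (adjusted p = 0.0599 and 0.0673), although males and females did not overlap. The fkbp5 transcript, at 43027 and 30897 in males, 13753 and 12559 in females and 765 and 1520 in juveniles, was the third of these. It had the largest ratio of males to juveniles, 32.4. This is given without a test because the males gave the largest part of the mean that placed it in the list. For the pdia transcript the male mean was 5.07 times the juvenile mean (log2 fold change -2.34 ± 0.21, adjusted p = 0.0014), and ctsla was not called (0.21 ± 0.30, adjusted p = 0.603).

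The calls between the sexes and those between juveniles and males were crossed. Both comparisons use the same 2 males, which bears on the crossing. The labels give no sex for the juveniles, so the second comparison can mix age with sex. Of the 49 members higher in females than in males, 3 were higher in juveniles than in males, 18 lower and 28 not called. Of the 21 higher in males, 9 were higher in juveniles, 4 lower and 8 not called. Of the 30 not called between the sexes, 12 were higher in juveniles, 10 lower and 8 not called. By group means, juveniles were below females in 48 of the 49 female-high members (MSTRG.4638.1 being the other) and above females in 17 of the 21 male-high members. The members not called between the sexes carried most of the juvenile share. They held 31.3% and 28.9% of the juvenile table totals, against 10.8% and 11.9% of the male and 5.37% and 4.65% of the female totals.

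**Figure D3:**
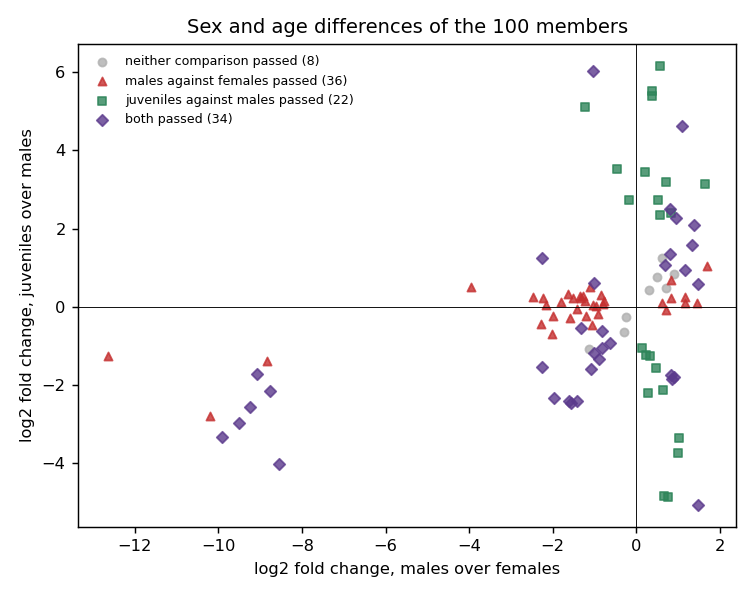
Each point is 1 of the 100 members, with the log2 fold change of males over females on the x axis and that of juveniles over males on the y axis, both from limma with the deposited size factors and marked by which comparison passed. The 9 members low in males and juveniles lie far to the left, from -12.63 to -8.56, and the juvenile-high members rise to 6.17 near the centre. The axes share the 2 males, so the slope of the cloud is not a result.

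Among the members, the 2 males differed more than the fish of the other groups did. Over the members, the median ratio of the higher to the lower fish was 1.33 in males, 1.17 in females and 1.13 in juveniles. The ratio exceeded 2 in 24 members in males, in 3 in females and in 4 in juveniles. Over the table, among transcripts with at least 10 normalised counts in both fish of the group, it exceeded 2 in 11.6% in males, 11.6% in females and 8.35% in juveniles. Of the 24 members, male 1 was higher in 19 and male 2 in 5. The female-only members account for 9 of the 19. The 5 higher in male 2 included MSTRG.28423.1 and MSTRG.9606.1, given above.

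The table totals of the groups differed, although every fish had been scaled by the deposited size factor. They came to 12434775 and 12690427 normalised counts in males, 21406660 and 22475188 in females and 18247786 and 17245690 in juveniles. The groups did not overlap. The female total was 1.75 times the male total, the juvenile total 1.41 times the male and the female total 1.24 times the juvenile. Dividing by the table total therefore moves every transcript of males up by 0.80 against females and every transcript of juveniles down by 0.50 against males, on the log2 scale.

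The members had a large part in the juvenile totals and a small part in the female ones. Of the difference of 5184137 normalised counts between the mean totals of juveniles and males, the members held 4755013, or 91.7%. MSTRG.21586.1 alone held 1877684, and together with MSTRG.10154.1, MSTRG.4638.1, MSTRG.163.1 and MSTRG.17344.1 it held 4021983. The difference of males minus females was -9378323, of which the members held -1258984, or 13.4%. The largest single female excess among them was that of MSTRG.14894.1, at -221602. Between juveniles and females the members and the rest of the table ran in opposite directions, with juveniles minus females at 3496029 for the members and -7690215 for the rest.

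Leaving the members out of the totals shows the same. The log2 ratio of the juvenile to the male total fell from 0.50 to 0.07, about the size of the spread between fish (0.06). Without MSTRG.21586.1 alone it was 0.34, and without the 10 highest members 0.10. Beyond these, removal changed little, since the ratio was 0.07 without 50, 0.08 without 500 and 0.12 without the 1000 highest transcripts. The log2 ratio of males to females went the other way, from -0.80 to -0.92 without the members, and was -0.68 when only the 49 female-high members were left out and -0.92 when only the 21 male-high ones were. The ratio of juveniles to females moved from -0.31 to -0.85. Hence the excess of the juvenile over the male total rested on about 10 transcripts, while the excess of the female total did not rest on the members. The order of removal follows the mean over the fish, and 9 of the first 10 members were highest in juveniles. This is therefore a description, as for the shares.

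**Figure D4:**
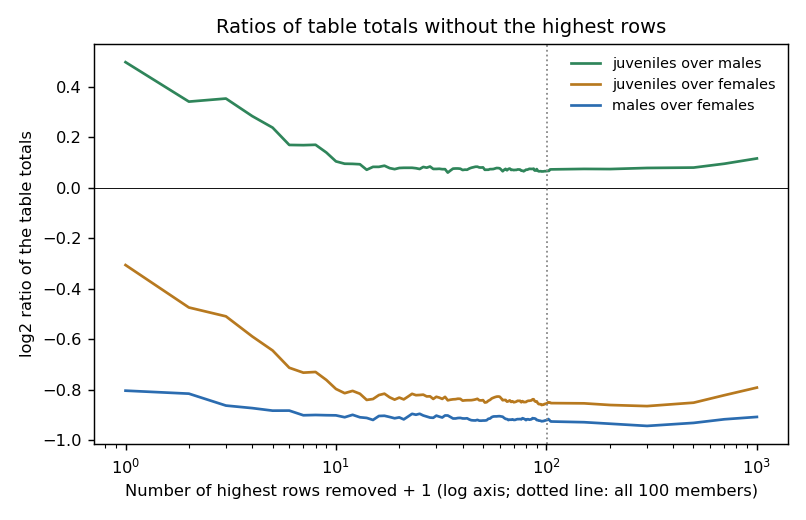
The log2 ratio of the table totals of each pair of groups (y axis) against the number of highest transcripts removed from the totals plus 1 (log axis), with a dotted line where all 100 members are out. The line of juveniles over males drops from 0.50 to 0.10 within the first 10 and to 0.07 without all members and is at 0.12 without 1000, that of juveniles over females drops from -0.31 to -0.81, and that of males over females moves from -0.80 to -0.91.

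The choice of scaling moved the numbers of members called between the sexes more than those called between juveniles and males. Scaled to the table total, 43 members were higher in males than in females and 31 lower, against backgrounds of 40.7% and 27.3%, so the share of higher calls among the members called rose from 30.0% to 58.1%. Scaled to the total without the members, the counts were 43 and 28, against 42.9% and 25.1%. The median of ratios and TMM, each estimated on the table, gave 38 higher and 36 lower. Over all transcripts tested, the median of ratios gave 4911 higher and 4272 lower of 13722, and TMM 4893 and 4313 of 13737. The median of ratios moved every transcript of males up by 0.59 against females. Whether more members are higher in females or in males thus depended on the scaling. These alternative scalings all rest on a table chosen on females against juveniles, so they need not follow the typical transcript of the library. Which scaling is the better one was not tested. Of the 21 higher in males, all 21 were still called with the table total, and 31 of the 49 higher in females were.

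Between juveniles and males, 20 members were higher and 44 lower when scaled to the table total, against 9.91% and 30.0% of all transcripts, so the share of higher calls went from 42.9% to 31.2%. With the members left out of the total, 22 were higher and 33 lower, against 17.2% and 17.6%. Each of these scalings moves all transcripts of a fish alike. On the log2 scale, juveniles moved down against males by a mean of 0.50 with the table total and of 0.07 without the members. How far the counts of calls follow from that shift was not tested. MSTRG.4638.1 and MSTRG.20608.1, called lower in males with the deposited factors, were not called with the table total (adjusted p = 0.583 and 0.516), while MSTRG.10154.1 and MSTRG.163.1 were then called higher in males (adjusted p = 0.0075 and 0.0086).

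**Figure D5:**
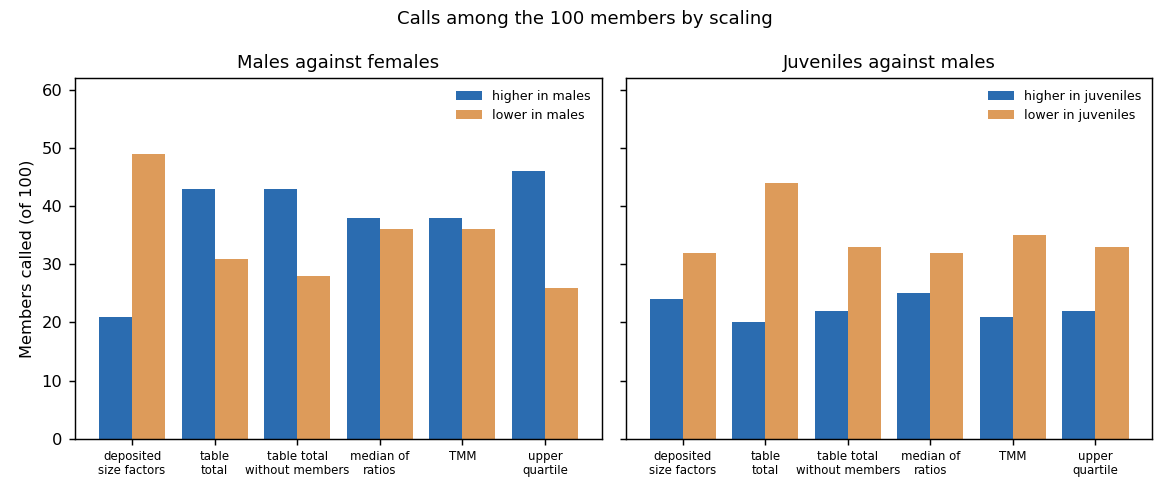
Bars give how many of the 100 members were called higher (blue) or lower (orange) in males against females (left) and in juveniles against males (right) under 6 scalings (x axis). On the left, the deposited size factors give 21 and 49 and the table total 43 and 31. On the right, they give 24 and 32 and 20 and 44, and the total without the members gives 22 and 33.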

How the data were processed

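Whole-body RNA of 2 adult males, 2 adult females and 2 juveniles was sequenced, and groups were taken from the sample titles. Per the study's methods and the submitters' processing notes, reads were mapped to GRCz11 with HISAT2 2.1.0, assembled with StringTie 1.3.4, counted with featureCounts 1.6.3 and normalised with DESeq2 2.11.40.2. The deposited signal is a read count over a size factor for each fish. The authors' columns of log2 fold changes with standard errors, Wald scores and p-values were not used beyond finding that the adjusted p selects the table. A deposited difference of female and male means was not used, and a selection mark is described only. All values were whole reads within 0.01 of a read (100% of values), and 3 reads are 2.40 to 4.23 normalised counts. Wilson intervals and floors cover counting error only.

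Groups were compared with limma-trend, from limma 3.58.1 in R 4.3.3, on the log2 of each value plus 1. A transcript was tested when 2 or more fish reached 10 normalised counts (13748 were), the 6 fish formed 3 groups with 3 degrees of freedom left, and p-values were adjusted by Benjamini-Hochberg at 0.05. Every adjusted p printed comes from limma unless another tool is named. It sets a difference of group means against the spread between fish, pooled over the 3 groups and drawn towards a trend over all transcripts. Ratios are of group means of normalised counts, and log2 fold changes are on the scale of the fit, which understates low values. Alternatives were scalings to the table total with and without members, factors estimated on the table (median of ratios, upper quartile and TMM), a pseudocount of 10, other filters, edgeR 4.0.16 and DESeq2 1.42.0 run on the reads, fits of only 2 groups, a replicate block and leaving out each fish, where the lone fish left in a group is assumed to vary like the others. The scripts were tested on simulated data. Python 3.11.15, pandas 2.3.3, numpy 2.4.6, scipy 1.17.1 and matplotlib 3.10.9 were used for tables and plots.

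Named members were the 10 highest, the 5 most extreme at either end of the ratios of males to females and of juveniles to males, the 3 with the largest ratio within a group, those with a gene name and the last 2, with the next 2 transcripts outside. Gene names were assigned where the 6 values matched those printed for a gene in the study's heat maps to 2 significant digits, rounded or cut. The 2 juvenile values could match in either order. Only the more abundant transcripts were searched, with 1 match each. The members and lists were chosen with earlier results of these data known. Sequences are not shown, because the assembly's transcripts could not be linked to a reference here.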

Additional observations from a re-analysis of the deposited data

How the results depend on the processing

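The numbers of members called between the sexes depended on the scaling, and the cause was not tested beyond the totals given above. The alternative scalings all rest on the selected table. Members higher in males numbered 21 with the deposited size factors and 43 with the table total, 43 and 45 without the members and without members and left-out transcripts, 38 with the median of ratios, 38 with TMM and 46 with the upper quartile, and members lower in males 49, 31, 28 and 28 with the first 4 and 26 with the upper quartile. Leaving out 1 fish gave 5 (without female 2) to 20 higher and 42 to 49 lower members, and 16 to 27 higher and 20 (without juvenile 3) to 33 lower between juveniles and males. Over all transcripts, those higher in males numbered 2761 and, in the same order, 5588, 5892, 5953, 4911, 4893 and 6175 (1453 to 2480 with a fish left out), and those lower 5564, with 3442 and 3407 without the members or members and left-out transcripts and 3201 with the upper quartile. Between juveniles and males they numbered 2561 higher and 2228 lower, and 1361 and 4122 with the table total (591 to 2822 and 1145 to 2069 with a fish left out).

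The shares depended on the list. With 50 or 200 transcripts they were 21.9% and 35.5% in males, 15.2% and 29.4% in females and 41.9% and 51.9% in juveniles. With each group ranked on the other groups, so that its own values did not enter the ranking, they were 24.8%, 14.5% and 36.6%, in the same order of groups. The transcripts ranked still came from a table chosen on females against juveniles. In females they were 22.3% with the left-out transcripts counted, 17.5% with ranking by log2 values and 20.6% by mean share. Leaving out a fish gave 25.2% to 28.7% in males, 19.5% to 22.9% in females and 42.6% to 47.7% in juveniles. The log2 ratios of totals without the members and left-out transcripts, and without the 10, 25, 50, 200, 500 and 1000 highest, were -0.94, -0.91, -0.90, -0.92, -0.94, -0.93 and -0.91 for males over females, 0.063, 0.095, 0.083, 0.071, 0.074, 0.080 and 0.12 for juveniles over males and -0.87, -0.81, -0.82, -0.85, -0.86, -0.85 and -0.79 for juveniles over females. Without all members they were -0.92, 0.067 and -0.85, and without the highest alone 0.34 and -0.47 for juveniles over males and over females. Without the female-high members they were -0.68 for males and -0.20 for juveniles over females, and without the male-high ones -0.92 and -0.40.

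For the 30 named members, 949 of 1110 values under an alternative kept direction and call, 58 lost the call, 73 gained one and 30 turned sign, none of these passing the threshold. With 1 fish left out, the log2 fold change of males over females ranged from -0.19 to 0.62 in MSTRG.21586.1, -0.056 to 0.82 in MSTRG.17344.1, -0.25 to 1.47 in MSTRG.28423.1, -0.18 to 0.93 in MSTRG.31341.1 and -1.001 to 0.063 in MSTRG.24668.1. In the last it also turned, to 0.33 with the table total, 0.45 without members, 0.47 without members and left-out transcripts, 0.12 with the median of ratios, 0.10 with TMM and 0.54 with the upper quartile. That of juveniles over males ranged from -0.32 to 0.51 in MSTRG.19567.1, -0.26 to 0.35 in MSTRG.20608.1, -2.62 to 0.091 in MSTRG.14894.1, -0.51 to 0.69 in MSTRG.9606.1 and -0.24 to 0.67 in MSTRG.7542.1 (ctsla). It turned with the table total in MSTRG.19567.1 (-0.41), MSTRG.20771.1 (-0.26), MSTRG.20608.1 (-0.45), MSTRG.9606.1 (-0.41) and MSTRG.7542.1 (-0.29) and with TMM in MSTRG.19567.1 (-0.070), MSTRG.20608.1 (-0.11) and MSTRG.9606.1 (-0.073). MSTRG.20608.1 also turned to -0.019 without members, -0.016 without members and left-out transcripts and -0.031 with the upper quartile, and MSTRG.9606.1 to -0.030 with DESeq2 and -0.030 with edgeR.

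The adults share only the numbers 1 and 2. Deviations of same-numbered adults correlated at -0.04 over the 13748 transcripts tested, so the numbers were not taken to pair them. With the replicate block on the adults, 22 members were higher and 49 lower in males than in females.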
